A study of Mus musculus with 8 samples.

Results

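The 10 genes described here encode ubiquitin ligases known to restrain T cells, together with one adaptor that switches several of them on. They were chosen by gene symbol (Cbl, Cblb, Itch, Rnf128, Ndfip1, Nedd4, Nedd4l, Peli1, Traf6 and Dtx1), all 10 were found among the 24421 symbols of the count files, and all 10 passed the filter on low counts. RNA was read from naive CD4+ T cells of the spleen of C57BL/6 mice that the labels give as male and aged 6 to 8 weeks, in 4 libraries titled E1KO and 4 titled E1WT. The study compares wild-type mice with mice whose floxed Pcbp1 alleles (Pcbp1fl/fl) meet Cd4-Cre, a recombinase driven by the Cd4 gene and active in T cells from thymic development onward. The genotype field names the groups Pcbp1+/+Cd4-Cre and Pcbp1fl/flCd4-Cre, so that by this field both carry the recombinase, while the design text calls the controls wild type. PCBP1 (hnRNP E1) binds RNA and prefers stretches rich in C.

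The genotype field gives the opposite of the title in each of the 8 samples, and libraries are therefore named by title. Pcbp1 stood at 38.3 to 41.8 CPM (CPM, gene counts scaled to a common library size, with TMM factors) in the E1KO-titled and at 203 to 243 CPM in the E1WT-titled libraries, which goes with the titles. Xist, the RNA of the inactive X chromosome, was at 365 to 426 CPM in E1KO-titled and at 0.55 to 2.89 CPM in E1WT-titled libraries, and 4 Y-linked genes summed to 149 to 165 CPM and 306 to 326 CPM. The Xist values of the E1KO-titled libraries go against the label of male mice. Every difference between the titles is therefore also a difference in this sex-linked signal, and these cannot be told apart. The libraries held 28264655 to 36738202 gene counts. T cell markers were present in all of them (7 of 8 listed markers measured, summing to 3005 to 3696 CPM). Of 13333 genes tested with edgeR's quasi-likelihood test, 23.3% passed a Benjamini-Hochberg adjusted p of 0.05, 12.2% as higher and 11.1% as lower in E1KO-titled libraries.

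Ubiquitin ligases are the enzymes that choose which protein receives ubiquitin. Those of the RING type (CBL, CBL-B, GRAIL, Pellino-1, TRAF6 and Deltex-1) hold the ubiquitin-charged conjugating enzyme next to the substrate, while those of the HECT type (ITCH, NEDD4 and NEDD4L) first take the ubiquitin onto themselves. In T cells several of them mark receptor-proximal signalling proteins for removal, which raises the threshold for activation and is part of anergy, the unresponsive state that follows a receptor signal without costimulation. Mice without Cbl-b, Itch or Ndfip1 are known to develop autoimmunity or inflammation. NEDD4 is the member whose known role departs from this label, since it has been described to target CBL-B and so to favour T cell activation.

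The promoter windows of the members that passed the test are shown because factors of the anergy response, NFAT and EGR proteins, are known to act on several ligase genes. RefSeq windows (GRCm38.p6, from 250 bases before to 50 bases after a start site) were matched by symbol for 7 of the 10 members, and Itch, Ndfip1 and Nedd4l had none. Capitals mark the NFAT core GGAAA, the EGR core GCGNGGGCG and the AP-1 core TGANTCA, searched on both strands with overlaps allowed.
Nedd4, upstream start, chr9:72662081-72662380, plus strand: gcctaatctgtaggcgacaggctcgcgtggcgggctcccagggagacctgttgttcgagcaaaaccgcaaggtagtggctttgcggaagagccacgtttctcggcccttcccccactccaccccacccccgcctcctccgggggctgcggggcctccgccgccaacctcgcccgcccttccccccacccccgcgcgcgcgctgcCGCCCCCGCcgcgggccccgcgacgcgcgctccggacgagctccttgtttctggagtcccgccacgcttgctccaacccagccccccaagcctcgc
Nedd4, downstream start, chr9:72693048-72693347, plus strand: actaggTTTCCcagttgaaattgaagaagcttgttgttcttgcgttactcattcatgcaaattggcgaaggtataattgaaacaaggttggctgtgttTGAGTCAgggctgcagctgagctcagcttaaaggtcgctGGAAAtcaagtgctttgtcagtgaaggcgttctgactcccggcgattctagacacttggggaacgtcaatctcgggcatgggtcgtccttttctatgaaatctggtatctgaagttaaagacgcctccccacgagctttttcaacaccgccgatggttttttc
Cbl, chr9:44233997-44234296, minus strand: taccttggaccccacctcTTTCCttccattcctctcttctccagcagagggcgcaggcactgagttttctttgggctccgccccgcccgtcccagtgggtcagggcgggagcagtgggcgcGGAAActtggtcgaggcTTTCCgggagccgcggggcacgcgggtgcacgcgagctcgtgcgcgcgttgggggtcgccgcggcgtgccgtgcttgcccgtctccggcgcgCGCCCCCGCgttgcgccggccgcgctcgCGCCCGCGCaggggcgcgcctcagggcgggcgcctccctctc
Peli1, chr11:21091074-21091373, plus strand: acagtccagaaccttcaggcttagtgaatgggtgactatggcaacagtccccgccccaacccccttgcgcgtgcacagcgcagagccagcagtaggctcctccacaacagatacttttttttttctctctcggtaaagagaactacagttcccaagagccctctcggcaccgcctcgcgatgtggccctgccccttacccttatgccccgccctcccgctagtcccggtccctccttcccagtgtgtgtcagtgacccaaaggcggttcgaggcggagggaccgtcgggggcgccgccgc
Dtx1, chr5:120711620-120711919, minus strand: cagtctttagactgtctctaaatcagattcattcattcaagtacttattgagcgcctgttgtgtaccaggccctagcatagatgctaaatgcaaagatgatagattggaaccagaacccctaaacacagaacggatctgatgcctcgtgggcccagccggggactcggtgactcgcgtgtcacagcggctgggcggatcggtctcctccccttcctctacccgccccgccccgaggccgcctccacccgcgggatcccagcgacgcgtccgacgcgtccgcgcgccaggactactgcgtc

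The windows differed in these letters. The Cbl window held 2 EGR cores and 3 NFAT cores at a GC content of 74%, and the upstream Nedd4 window held 1 EGR core and no NFAT core at 73%. The downstream Nedd4 window, at 46.7% GC, held 2 NFAT cores and 1 AP-1 core. None of the motifs was found in the windows of Peli1 and Dtx1, 2 of the genes that fell, nor in that of Traf6. Cblb and Rnf128 each held 2 NFAT cores. Among all 32851 windows of 300 bases in the table, 61.3% held the NFAT core, 5.55% the EGR core and 7.81% the AP-1 core. A match is a description of the letters and not a measured binding site.

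Of the 10 members, 1 rose (Nedd4) and 3 fell (Cbl, Peli1 and Dtx1) in E1KO-titled against E1WT-titled libraries, and 6 did not pass. Without any 1 of E1KO 2, E1KO 4, E1WT 1 and E1WT 3 the members called were 2, with 1 lower. In these fits the count of all genes called also fell, from 3108 to 2384, 2204, 2245 and 2279, of 13518 to 13601 tested. The share called was 40%, from 10 genes, against the 23.3% of all genes tested given above. In level Nedd4, Cbl, Peli1 and Dtx1 lay above 65.5%, 93.2%, 96.6% and 97.6% of the tested genes. The members that did not pass lay above 20.6% to 90.3%, and the part of level in the share called was not tested. The members' median log2 fold was -0.08 and their median size of change 0.15, against 0.01 and 0.18 over all genes. Nedd4, Peli1 and Dtx1 had no overlap between the titles, as did 26.0% of all genes.

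**Figure D1:**
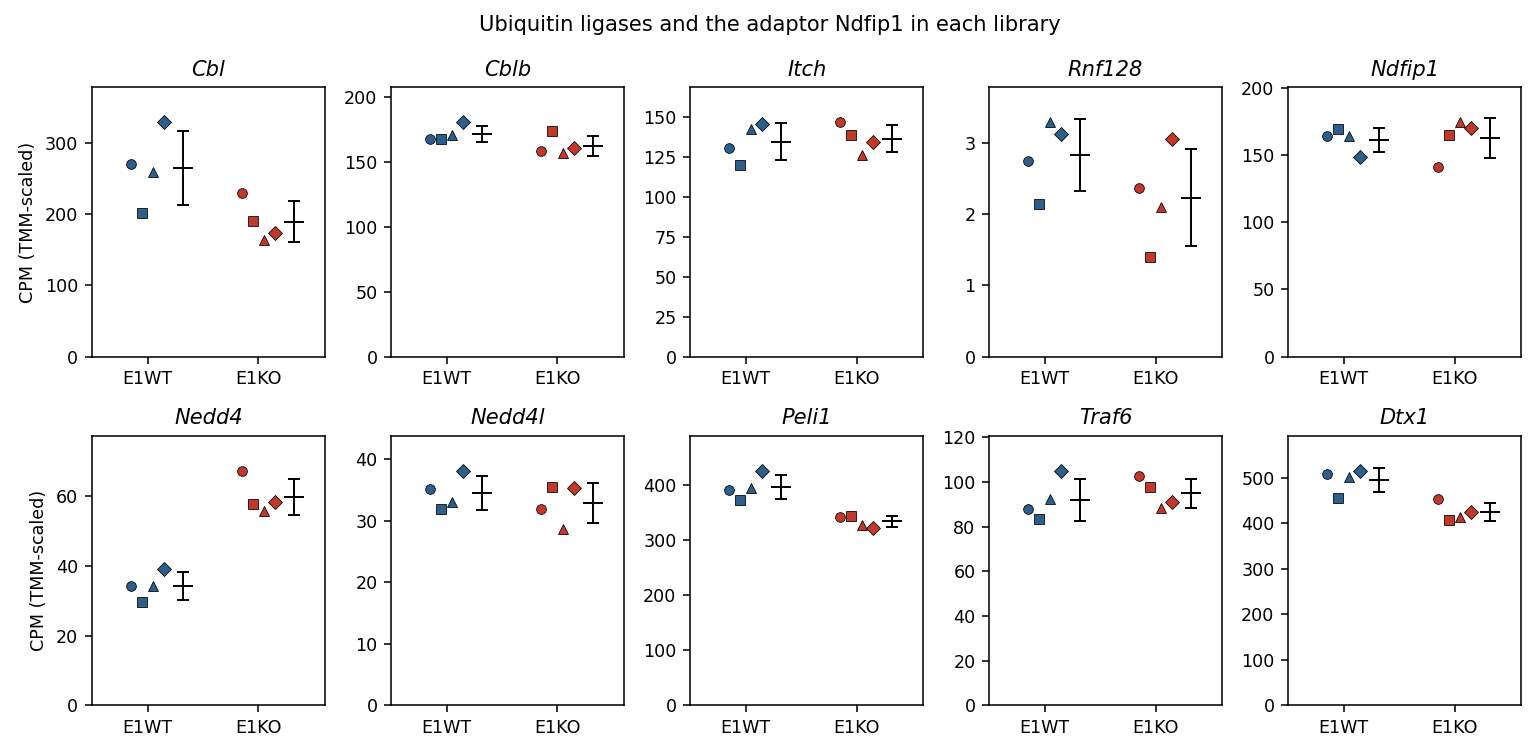
Level of each of the 10 genes in every library (y axis, TMM-scaled CPM from 0; x axis, library title). Symbols mark replicates 1 to 4 as circle, square, triangle and diamond, and the bar is the mean ± SD of 4 libraries. The E1KO-titled libraries lie above all E1WT-titled ones for Nedd4 and below them for Peli1 and Dtx1, and the titles overlap for the other 7 genes.

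The levels of the genes relative to one another are given per kilobase of exon. In the E1WT-titled libraries Dtx1 was highest at 94.0 ± 4.99 CPM per kb, followed by Peli1 at 60.3 ± 3.33 (SD, n = 4). Ndfip1 (25.5 ± 1.43), Cbl (21.5 ± 4.21) and Cblb (16.4 ± 0.576 CPM per kb) came next, and Cbl overlapped both of its neighbours in this order. Itch at 13.9 ± 1.20 and Traf6 at 11.7 ± 1.19 CPM per kb overlapped each other. Nedd4 (3.12 ± 0.358), Nedd4l (1.96 ± 0.155) and Rnf128 (0.815 ± 0.146 CPM per kb) closed the order without overlap. In the E1KO-titled libraries Cbl stood at 15.3 ± 2.34 CPM per kb, beside Cblb at 15.5 ± 0.730, and overlapped Cblb and Itch but no longer Ndfip1. The rest of the order was the same.

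Of the HECT ligases among the members, Nedd4 had the largest log2 fold, though not the highest level. It is the founding member of its family and takes up substrates through WW domains. Nedd4 lies on chromosome 9 from 72662346 to 72749852, plus strand (GRCm38), and its longest annotated transcript has 29 exons. It read 67.3, 57.9, 55.9 and 58.5 CPM in E1KO 1 to 4, and 34.1, 29.6, 34.2 and 39.2 CPM in E1WT 1 to 4. The lowest E1KO-titled library stood well above the highest E1WT-titled one. The means were 59.9 ± 5.09 and 34.3 ± 3.93 CPM (SD, n = 4 each), a log2 fold of 0.81 ± 0.09 (SE) or 1.75-fold, with an edgeR adjusted p of 0.00011. By p-value Nedd4 was number 215 of the 13333 genes. The call held in each of the 17 other fits that were run, with log2 folds of 0.74 to 0.88.

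Nedd4 rose in the same libraries in which markers of some other cell types rose. Monocyte and macrophage markers summed to 93.6 to 108 CPM in E1KO-titled and to 47.4 to 57.1 CPM in E1WT-titled libraries, with 5 of 11 markers higher and 1, C1qb, lower. C1qa, C1qb and Cd14 stayed below 1 CPM in every library, while Lyz2, the lysozyme of myeloid cells, reached 50.2 to 64.6 CPM against 18.0 to 24.6. Dendritic cell markers summed to 74.7 to 90.3 and 60.8 to 72.9 CPM, with 7 of 10 higher and Batf3 below 1 CPM throughout. Erythroid markers, such as the carbonic anhydrase gene Car1, summed to 228 to 267 and 102 to 123 CPM, with 5 of 7 tested markers higher and 3 globin genes listed at 0 in every library. Stromal and endothelial markers were at 258 to 269 and 248 to 262 CPM, nearly all of it from Pecam1, which alone averaged 256 and 250 CPM. The part of these cells in the level of Nedd4 was not tested. In bulk RNA, more cells of a type and more RNA per cell cannot be told apart, which holds for every gene in this text.

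The genes whose log2 CPM followed Nedd4 most closely over the 8 libraries, among 8708 genes whose log2 CPM averaged 3 or more, were Dtx4, Pde2a, Itih5, Mcm5 and Mpeg1, with Pearson r of 0.995 to 0.997. These values describe 8 points that mostly share 1 feature, the split by title. Dtx4, a Deltex family ligase, went from 13.9 ± 0.738 to 18.7 ± 0.780 CPM (E1WT to E1KO). Mcm5, a subunit of the replicative helicase, went from 95.4 ± 7.26 to 130.0 ± 4.18 CPM, and Mpeg1, a gene of macrophages, from 24.5 ± 3.61 to 55.7 ± 6.80 CPM.

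The closest relative of Nedd4 in the list, Nedd4l, is known best for ion channel turnover and SMAD proteins. It read 31.9, 35.4, 28.7 and 35.4 CPM in E1KO 1 to 4 and 35.2, 31.9, 33.0 and 38.1 CPM in E1WT 1 to 4. The titles overlapped and the log2 fold was -0.07 ± 0.09 (95% interval -0.26 to 0.12, edgeR adjusted p = 0.59). Nedd4l lies on chromosome 18 from 64887705 to 65217828, plus strand. The antisense gene A330084C13Rik shares 277 bp with the exons of Nedd4l and is not among the symbols of the count files under this name. Without strand information, antisense reads from that stretch could have been counted as Nedd4l.

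Itch, the HECT ligase whose loss gives the itchy mouse and which is known to act on JunB and on phospholipase C-gamma1, had the titles overlapping as well. It read 147, 139, 126 and 135 CPM in E1KO 1 to 4 and 131, 120.2, 142 and 146 CPM in E1WT 1 to 4. The log2 fold was 0.02 ± 0.07 (95% interval -0.14 to 0.18, edgeR adjusted p = 0.87). Itch lies on chromosome 2 from 155133509 to 155226855, plus strand.

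Ndfip1, the membrane-bound adaptor that recruits and activates Itch and other HECT ligases of the NEDD4 type, ranged from 141 to 174 CPM in E1KO-titled and from 148 to 169 CPM in E1WT-titled libraries. Its log2 fold was 0.01 ± 0.07 (95% interval -0.15 to 0.17, edgeR adjusted p = 0.94). Its gene is on chromosome 18 from 38410396 to 38465303, plus strand. The related adaptor Ndfip2 averaged 34.2 CPM (E1KO) and 34.3 CPM (E1WT; log2 fold -0.01, edgeR adjusted p = 0.97). It was picked out once its value was known.

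Nedd4 was also set against the other HECT ligases within each library. The ratio of Nedd4 to Nedd4l counts within a library was 2.11, 1.63, 1.95 and 1.65 in E1KO 1 to 4 and 0.970, 0.927, 1.04 and 1.03 in E1WT 1 to 4. The ratio of Nedd4 to Itch was 0.438 ± 0.017 in E1KO-titled and 0.254 ± 0.013 in E1WT-titled libraries (SD, n = 4 each). Both ratios separate the titles, and they were formed after the values were seen, so no test is given.

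**Figure D2:**
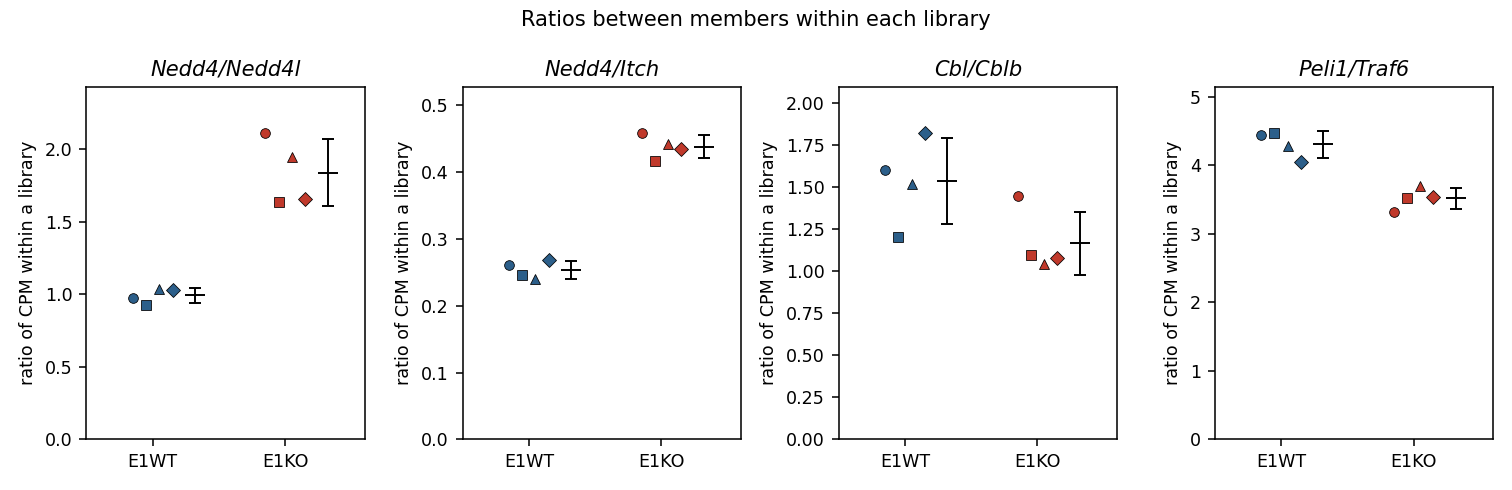
Ratio of the CPM of 2 genes within each library (y axis, from 0; x axis, library title), with symbols for replicates 1 to 4 as circle, square, triangle and diamond and a bar for the mean ± SD of 4 libraries. Nedd4 to Nedd4l lies at 1.63 to 2.11 in E1KO-titled and at 0.927 to 1.04 in E1WT-titled libraries, while the ratio of Cbl to Cblb overlaps between the titles.

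Among the RING ligases Cbl had the largest fall. CBL is known in T cells, and more so in thymocytes, for the ubiquitination of receptor chains and of the kinases bound to them. The gene lies on chromosome 9 from 44142976 to 44234049, minus strand, with up to 18 exons in 1 transcript. It read 229, 191, 164 and 174 CPM in E1KO 1 to 4 and 269.8, 202, 259 and 329 CPM in E1WT 1 to 4. E1KO 1, the highest of its title, lay above E1WT 2, the lowest of the other, so the titles overlapped. The means were 189 ± 28.9 and 265 ± 51.9 CPM (SD, n = 4 each), a log2 fold of -0.48 ± 0.14 with an edgeR adjusted p of 0.025. Leaving out any 1 of E1KO 2, E1KO 3, E1KO 4, E1WT 1, E1WT 3 and E1WT 4 took the adjusted p to 0.063, 0.065, 0.080, 0.066, 0.055 and 0.055.

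The spread of Cbl within a title went with a feature of the libraries. Libraries differed in how the level of all genes, relative to the mean over libraries, followed the exon length of the gene. The Spearman correlation was highest in E1WT 4 (0.32) and E1KO 1 (0.22), where Cbl was highest within its title. It was lowest in E1WT 2 (-0.26) and E1KO 3 (-0.32), where Cbl was lowest within its title, and Cbl has 12345 bp of annotated exon sequence. With this trend removed Cbl read 215, 189.7, 179 and 181 CPM in E1KO 1 to 4 and 266, 219, 251 and 298 CPM in E1WT 1 to 4. The titles then did not overlap, the log2 fold was -0.43, and the edgeR adjusted p was 0.0020. Over all genes the same removal took the count called from 3108 of 13333 to 3804 of 13257. Before removal, Nedd4, Itch and Traf6 had their highest and lowest values within each title in the same libraries as Cbl. Nedd4l, with the longest exon sequence of the members (17659 bp), and Cblb (10475 bp) departed from this. Both were highest in E1KO 2 among the E1KO-titled libraries and otherwise matched Cbl.

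**Figure D3:**
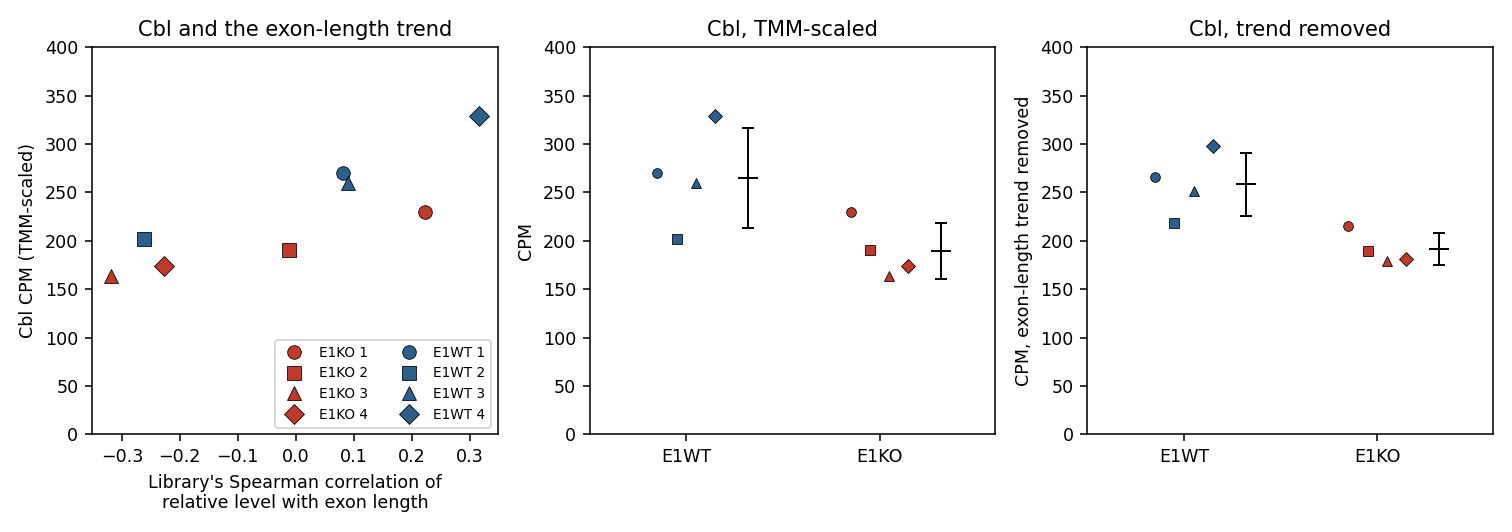
Cbl in the 8 libraries. The left panel sets its CPM (y axis) against each library's Spearman correlation of relative level with exon length (x axis); the middle and right panels show CPM by title before and after removal of that trend, with the mean ± SD of 4 libraries. E1KO 1 at 229 CPM lies above E1WT 2 at 202 CPM before removal, and at 215 against 219 CPM below it afterwards.

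Cblb, the paralog of Cbl that sets the need for CD28 costimulation in mature T cells, did not pass. It lies on chromosome 16 from 52031225 to 52208048, plus strand. It read 159, 174, 157 and 161 CPM in E1KO 1 to 4 and 168, 167, 171 and 180.4 CPM in E1WT 1 to 4, with E1KO 2 inside the E1WT range. The log2 fold was -0.08 ± 0.05 (95% interval -0.20 to 0.04, edgeR adjusted p = 0.31). The ratio of Cbl to Cblb was 1.17 ± 0.188 in E1KO-titled and 1.54 ± 0.255 in E1WT-titled libraries and overlapped between them. Whether Cbl and Cblb responded differently was not tested.

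Peli1, which encodes Pellino-1, a ligase known to limit T cell activation through the NF-kappaB subunit c-Rel, fell. It lies on chromosome 11 from 21091291 to 21150323, plus strand. Its libraries read 340.4, 344, 328 and 321 CPM for E1KO 1 to 4 and 389.9, 372, 394 and 425 CPM for E1WT 1 to 4. No library of one title reached the other. The means were 333 ± 10.5 and 395 ± 21.8 CPM (SD, n = 4 each), so that 84.3% of the E1WT level remained, with a log2 fold of -0.25 ± 0.06 and an edgeR adjusted p of 0.0082. Leaving out 1 library at a time gave log2 folds of -0.27 to -0.21 and adjusted p values of 0.0065 to 0.033. Rel, the gene of c-Rel, had a log2 fold of -0.19 ± 0.14 (adjusted p = 0.36), named after its value was seen.

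Dtx1, a Deltex ligase first known from Notch signalling and an NFAT-induced gene of anergic T cells, fell as well. It lies on chromosome 5 from 120680202 to 120711927, minus strand. It read 453, 407, 414 and 426 CPM in E1KO 1 to 4 and 508, 457, 501 and 515 CPM in E1WT 1 to 4. E1KO 1 and E1WT 2 stood next to each other, and the titles did not overlap. The means were 425 ± 20.1 and 495 ± 26.3 CPM (SD, n = 4 each), with a log2 fold of -0.22 ± 0.06 and an edgeR adjusted p of 0.018. The adjusted p was 0.064, 0.051, 0.063 and 0.057 without E1KO 2, E1KO 4, E1WT 1 and E1WT 3, each left out alone. B cells also express Dtx1, and B cell markers summed to 302 to 319 CPM in E1KO-titled and to 309 to 333 CPM in E1WT-titled libraries, with 2 of 12 tested markers higher and 2 lower.

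The falls of Peli1 and Dtx1, to 84.3% and 85.8% of the E1WT level, went with lower levels of T cell markers. Naive T cell markers summed to 5021 to 5109 CPM in E1KO-titled and to 5612 to 5822 CPM in E1WT-titled libraries (ratio of means 0.887), with 3 of 7 lower and 1 higher. General T cell markers had a ratio of 0.878, with 3 of 7 lower and 1 higher. Markers of regulatory T cells summed to 1130 to 1187 and 795 to 878 CPM, with 6 of 8 higher. A further listed marker, the folate receptor 4 gene, was missed under its older symbol and is not in this sum. As Izumo1r it went from 170 ± 11.2 to 106 ± 2.30 CPM (E1WT to E1KO), a log2 fold of -0.68 ± 0.06. Plasma cell markers summed to 831 to 1038 and 571 to 780.4 CPM, with 1 of 6 markers higher, Jchain, which alone averaged 803 and 556 CPM. The summed markers of CD8 T cells (20.3 to 27.9 and 25.4 to 31.0 CPM), activated or memory T cells (469 to 502 and 476 to 520.2 CPM), NK cells (103 to 111 and 99.2 to 109 CPM) and neutrophils (43.6 to 47.6 and 41.9 to 44.8 CPM) overlapped between the titles. The part of these shifts in the levels of Peli1, Dtx1 and Cbl was not tested.

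Traf6, a signalling ligase of the TNF receptor and Toll-like receptor families whose loss in T cells is known to make them resist regulation, ranged from 88.6 to 103 CPM in E1KO-titled and from 83.2 to 105 CPM in E1WT-titled libraries. The log2 fold was 0.05 ± 0.08 (95% interval -0.12 to 0.21, edgeR adjusted p = 0.72). Traf6 lies on chromosome 2 from 101678429 to 101701669, plus strand.

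Rnf128, which encodes GRAIL, a transmembrane ligase induced in anergic CD4+ T cells, was barely expressed. It had 86, 46, 67 and 102 counts in E1KO 1 to 4 and 76, 78, 91 and 110 counts in E1WT 1 to 4. These are 1.40 to 3.05 and 2.15 to 3.28 CPM, and the titles overlapped. The log2 fold was -0.34 ± 0.25 and its 95% interval ran from -0.88 to 0.21 (edgeR adjusted p = 0.36). Without E1KO 2 the log2 fold was -0.17 and without E1KO 4 it was -0.52. Rnf128 is X-linked, at 139563316 to 139673145 on the plus strand.

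**Figure D4:**
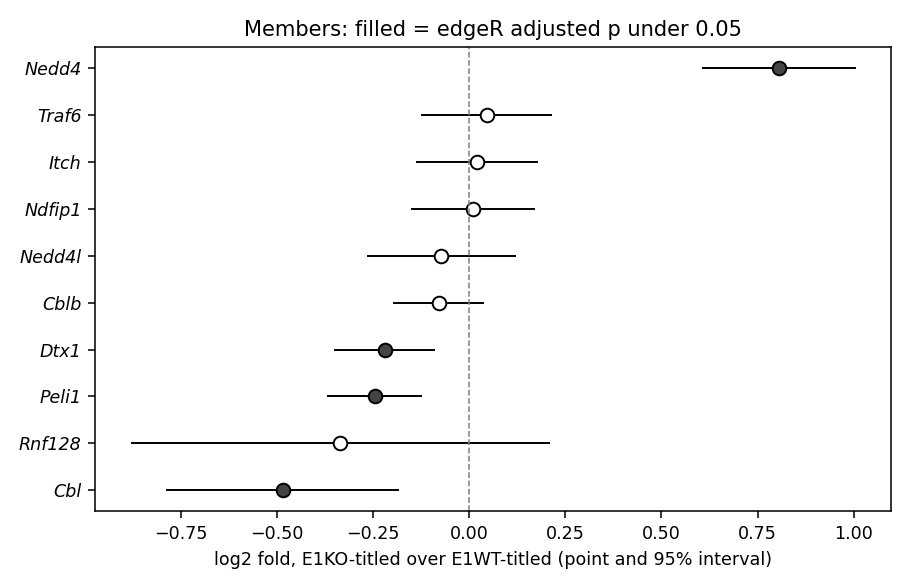
Log2 fold of each gene, E1KO-titled over E1WT-titled libraries (x axis), with its 95% interval; genes are ordered by fold on the y axis. Filled points passed an edgeR adjusted p of 0.05: Nedd4 at 0.81 is higher, and Dtx1 at -0.22, Peli1 at -0.25 and Cbl at -0.48 are lower.

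Relatives of the ligases from the same families were examined next. Of 29 listed 24 were tested, 5 rose and 0 fell in edgeR, with a median log2 fold of 0.04 (6 and 2 at an unadjusted p of 0.05, 5 and 0 in DESeq2 and in limma-voom). The share called was 20.8%, near the 23.3% of all genes. Peli2, a paralog of Peli1, went from 1.82 ± 0.145 to 5.06 ± 0.880 CPM (log2 fold 1.47 ± 0.18), against the fall of Peli1 itself. Rnf130, a relative of Rnf128, and Dtx4, of the Deltex family, rose by 0.53 ± 0.09 and 0.42 ± 0.08 on the log2 scale. The other HECT ligases of the NEDD4 family, Wwp1, Wwp2, Smurf1, Smurf2 and the low-expressed Hecw2, had log2 folds of -0.12 to 0.37 and edgeR adjusted p values of 0.21 to 0.63, and they were named after their values were seen.

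Enzymes and adaptors that work with the ligases were counted in the same way. Of 20 ubiquitin-activating and conjugating enzymes 3 rose and 0 fell in edgeR (median log2 fold 0.09; 6 and 0 at an unadjusted p of 0.05, 3 and 0 in DESeq2 and in limma-voom). The share called was 15%, below the 23.3% of all genes called in either direction, of which 12.2% were higher and 11.1% lower. The 3 were Ube2e3, from 16.7 ± 1.38 to 32.8 ± 3.63 CPM, Ube2g1 and Ube2l6. Of 21 tested deubiquitinases and their partners 0 rose and 1 fell in edgeR, Otub2 (log2 fold -0.49 ± 0.15), with a list median of -0.05. These counts were 1 and 5 at an unadjusted p of 0.05, 1 and 2 in DESeq2, and 0 and 1 in limma-voom, and the share called in edgeR was 4.76%. Adaptors and binding partners rose in 7 and fell in 2 of 23 cases (median 0.04), a share called of 39.1% against 23.3% of all genes. This list too was chosen with earlier results of these data known. The rises with the smallest p were those of Spry2, a Sprouty inhibitor that binds CBL, Nfe2 and Tifab at 1.52 ± 0.17, 1.28 ± 0.14 and 1.03 ± 0.15 on the log2 scale, all from means below 6 CPM. Myeloid and erythroid markers, given beside Nedd4, rose in the same libraries.

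Of 46 genes listed as substrates of the ligases or as neighbouring signalling proteins 12 fell and 4 rose (median log2 fold -0.11), against 11.1% lower and 12.2% higher over all genes. Map4k1, a kinase that dampens receptor signalling, went from 165 ± 5.82 to 111 ± 3.98 CPM, and Zap70, the kinase bound to the receptor's zeta chain, fell by 0.51 ± 0.05 on the log2 scale. Foxp3, the factor of regulatory T cells, rose by 0.46 ± 0.05. Plcg1 and Prkcq, the phospholipase and the protein kinase C known as targets of Cbl-b, Itch and Deltex-1, had log2 folds of -0.38 ± 0.05 and -0.25 ± 0.05 (edgeR adjusted p = 0.00026 and 0.0043) and were picked out once their values were known.

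Of 29 other ligases with roles in T cells 3 rose and 7 fell (median log2 fold -0.06), where 12.2% of all genes rose and 11.1% fell. Rbck1, a subunit of the linear ubiquitin chain assembly complex, went from 233 ± 4.46 to 123 ± 7.78 CPM, a log2 fold of -0.92 ± 0.06, and Trim28 rose by 0.25 ± 0.05. Huwe1, a very large X-linked HECT ligase, fell by 0.70 ± 0.12 on the log2 scale. Rnf31, the catalytic subunit of the complex with Rbck1, had a log2 fold of -0.20 ± 0.06 (edgeR adjusted p = 0.027) and was picked out once its value was known.

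Anergy genes other than ligases were split, with 7 of 29 higher and 8 lower (median log2 fold -0.01). The share called was 51.7%, against 23.3% of all genes, in a list chosen with earlier results of these data known. The part of expression level in this share was not tested. Dgka, whose kinase removes diacylglycerol below the receptor, went from 1365 ± 21.4 to 527 ± 19.9 CPM, and Izumo1r, the folate receptor 4 gene, fell by 0.68 ± 0.06. Ndrg1, described as an anergy factor, rose by 1.25 ± 0.08 on the log2 scale. Egr2 and Egr3, whose motif was searched above, had log2 folds of -0.30 ± 0.08 and -0.51 ± 0.06 (edgeR adjusted p = 0.022 and 0.00013), and Nfatc1 one of -0.27 ± 0.06 (0.0078). Nfatc2 had a log2 fold of -0.15 ± 0.09 (edgeR adjusted p = 0.27). Nr4a1, Nr4a2 and Nr4a3 rose by 0.36 ± 0.10, 1.11 ± 0.15 and 0.31 ± 0.09 on the log2 scale. The Egr, Nfat and Nr4a genes were named after their values were seen. Their part in the levels of the members was not tested.

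**Figure D5:**
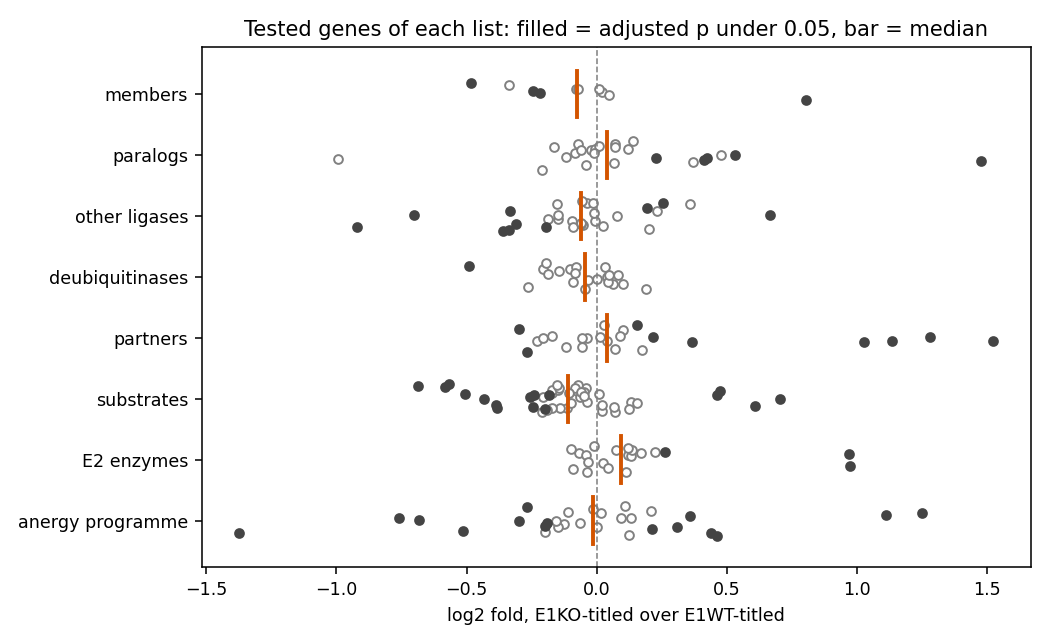
Log2 fold, E1KO-titled over E1WT-titled (x axis), of every tested gene in the ligase group and in 7 related lists (y axis; points are spread vertically for legibility). Filled points passed an edgeR adjusted p of 0.05 and bars mark list medians, which run from -0.11 for the substrates to 0.09 for the conjugating enzymes.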

How the data were processed

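Naive CD4+ T cells were isolated from the spleen with a kit, and libraries were made from 50 ng of total RNA and read at 75 bp paired-end, per the labels' protocols. The submitters' processing notes list TopHat2 2.1.0, HTSeq 0.9.1 and mm10, and neither the gene annotation nor the strand setting is given in the sources used here. Raw counts per gene symbol were deposited. Library sizes and tests exclude 5 further rows of reads given to no gene (28.2% to 37.0% of a file).

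Libraries were grouped by title, 4 against 4. Separate animals are not stated, so the spread behind each p-value may be technical. Replicates differed beyond sampling noise in every pair (chi-square per degree of freedom 4.10 to 60.1). The test was edgeR 4.0.16 (R 4.3.3) with TMM scaling, the default filter (count minimum 10, total minimum 15), the quasi-likelihood test and Benjamini-Hochberg adjustment over all genes at 0.05. Standard errors and 95% intervals derive from the F statistic, and log2 CPM used a prior count of 2. The test was also run on counts simulated without the exon-length trend, so that run does not cover this feature of the libraries. Alternatives used other scalings and filters, DESeq2 1.42.0, limma-voom (limma 3.58.1), removal of an exon-length trend, the replicate number as a block, and libraries left out. Positions and exon lengths come from GENCODE on GRCm38, the assembly of mm10; 23384 of the symbols matched directly and 677 through another symbol.

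The members, the 7 other gene lists and the marker lists were chosen with earlier results of these data known. Named beside the members are up to 3 called genes with the smallest p of each list, and the 5 genes most like the member with the smallest p.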

Additional observations from a re-analysis of the deposited data

How the results depend on the processing

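The 10 members were refitted under 17 alternatives, which gave 170 values, of which 150 kept their direction and their side of the threshold. All 17 alternatives kept both for Cblb, Rnf128, Nedd4, Peli1 and Traf6. With 1 library left out, the number of members called ran from 2 to 4 and the number called lower from 1 to 3. In these fits 2204 to 3213 of all genes were called. Over all 8 such fits, kept calls included, the log2 folds ran from -0.59 to -0.36 for Cbl and from -0.25 to -0.20 for Dtx1. Cbl lost its call in 6 of the 8 and Dtx1 in 4 of the 8, and these fits had fewer libraries. The count of all genes called stayed within 1.5 times in every alternative. Values near 0 changed sign without passing a test. Left-out libraries gave -0.027 to 0.062 for Itch and -0.028 to 0.073 for Ndfip1, and Ndfip1 stood at -0.0015 with DESeq2 size factors, at -0.00088 in the DESeq2 test and at -0.0097 with the exon-length trend removed, where Nedd4l stood at 0.024.

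Replicate numbers are shared by the titles, but same-numbered libraries did not deviate together (Pearson r across genes of -0.099 to 0.014) and 0 of 8 libraries correlated best with their own number. With the replicate block the call of Dtx1 ended (log2 fold -0.22, edgeR adjusted p = 0.051), and Nedd4, Cbl and Peli1 kept theirs at 0.0012, 0.043 and 0.049. The block took the count of all genes from 3108 to 2156. Rnf128 had the lowest counts of the members, 46 to 110 a library, and its log2 fold ran from -0.52 to -0.17 with 1 library left out; the part of depth in this spread was not tested.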

Other observations

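The balance of Peli1 and Traf6, both ligases of the signalling route from Toll-like and interleukin-1 receptors, differed between the titles. The ratio of their CPM within a library was 3.32, 3.52, 3.70 and 3.53 in E1KO 1 to 4 and 4.44, 4.47, 4.28 and 4.05 in E1WT 1 to 4, so that every E1KO-titled library lay below every E1WT-titled one. The ratio of the adaptor Ndfip1 to Itch, which it activates, was 1.20 ± 0.177 and 1.21 ± 0.164 (SD, n = 4 each) and overlapped. These ratios were chosen after the values were seen and were not tested. Peli1 alone already separated the titles, as did 26.0% of all genes, while Traf6 overlapped between them.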
